A study of Rattus norvegicus with 8 samples.

Results

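The genes examined here are 9 that make, store, remove and sense dopamine: Th, Ddc, Slc6a3, Slc18a2, Maoa, Drd1a, Drd2, Drd3 and Drd4. They were chosen by the gene name that the array design gives to non-control spots, which found 12 probes among 30367 unique probes. Drd1a is the array's older symbol for the D1 receptor gene. Rat hypothalamus was compared between 4 female Sprague Dawley rats (Taconic) in estrus, the receptive phase of the ovarian cycle, and 4 males of the same strain. All animals were 3 to 4 months old and carried no stated treatment or transgene, and the study asked how the sexes differ in the transcriptome, above all in cytoskeletal genes. Total RNA was hybridised to 4 two-colour Agilent arrays on 1 slide, with 1 female and 1 male of the same replicate number on each array. Females were labelled with Cy3 on arrays 1 and 3 and with Cy5 on arrays 2 and 4.

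Dopamine is made from tyrosine in 2 enzyme steps, by tyrosine hydroxylase (Th) and then by aromatic amino acid decarboxylase (Ddc). The vesicular transporter Slc18a2 loads it into vesicles, the membrane transporter Slc6a3 takes it back up, and monoamine oxidase A (Maoa) breaks it down. In the hypothalamus, dopamine neurons of the arcuate and periventricular nuclei send dopamine to the pituitary, where it holds down prolactin release through the D2 receptor. Ddc, Slc18a2 and Maoa also serve serotonin, noradrenaline or histamine neurons.

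The level of a member is read through a probe of 60 bases, and 3 of the 9 genes had 2 probes each. The probe letters from the array files are shown for 4 probes. Of these, 3 are the dimmer partner of a brighter probe and 1 is the probe of a receptor that was too dim to test. Each run is written 5′ to 3′, in lower case throughout, on the strand given with its rn4 position.
Ddc, chr14:92706750-92706809, minus strand: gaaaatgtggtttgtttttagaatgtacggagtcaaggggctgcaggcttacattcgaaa
Slc6a3, chr1:30520827-30520886, minus strand: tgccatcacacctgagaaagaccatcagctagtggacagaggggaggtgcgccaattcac
Drd2, chr8:52706533-52706592, plus strand: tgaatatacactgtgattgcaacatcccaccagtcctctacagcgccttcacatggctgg
Drd3, chr11:58446987-58447046, minus strand: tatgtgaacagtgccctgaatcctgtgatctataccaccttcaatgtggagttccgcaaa
The start of the brighter probe lay 8077 bases away for Ddc (chr14:92698673-92698732), 5278 bases away for Slc6a3 (chr1:30515549-30515608) and 1137 bases away for Drd2 (chr8:52707670-52707729). The single probes of the other genes were at chr1:203164254-203164313 (Th), chr1:265824461-265824520 (Slc18a2), chrX:17679155-17679214 (Maoa), chr17:16657572-16657631 (Drd1a) and chr1:201488725-201488784 (Drd4), all on rn4. The exon or untranslated region under each probe was not analysed here, as no rn4 annotation was used.

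The Cy3 channel was brighter, with a median of 502 to 530 intensity units over background per sample, against 148 to 272 in Cy5. The number of arrays limits the precision of every value. One library stood apart on marker lists that were chosen with earlier results of these data known. In the library labelled male 2 the summed log2 level of 9 hypothalamic marker genes (among them Avp, Oxt and Pmch) was 13.87, against 17.77 to 17.96 in the other males and 17.77 to 18.18 in the females. Of these 9 markers, 8 were well above background in all 8 libraries. The summed log2 level of the 5 measured cortical and hippocampal markers was 15.05 in the library labelled male 2, against 11.49 to 12.01 in the other males and 11.03 to 12.98 in the females. On these markers that library went against its tissue label. Its array partner, female 2, had the highest cortical sum of the females, with the cortical gene Neurod6 at 11.94 against 7.25 to 8.21 in the other females. Fitted ratios and their counts are therefore given with and without replicate 2 below, and correlations with and without the library labelled male 2. In bulk RNA, fewer cells of a type and less RNA per cell cannot be told apart.

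**Figure D1:**
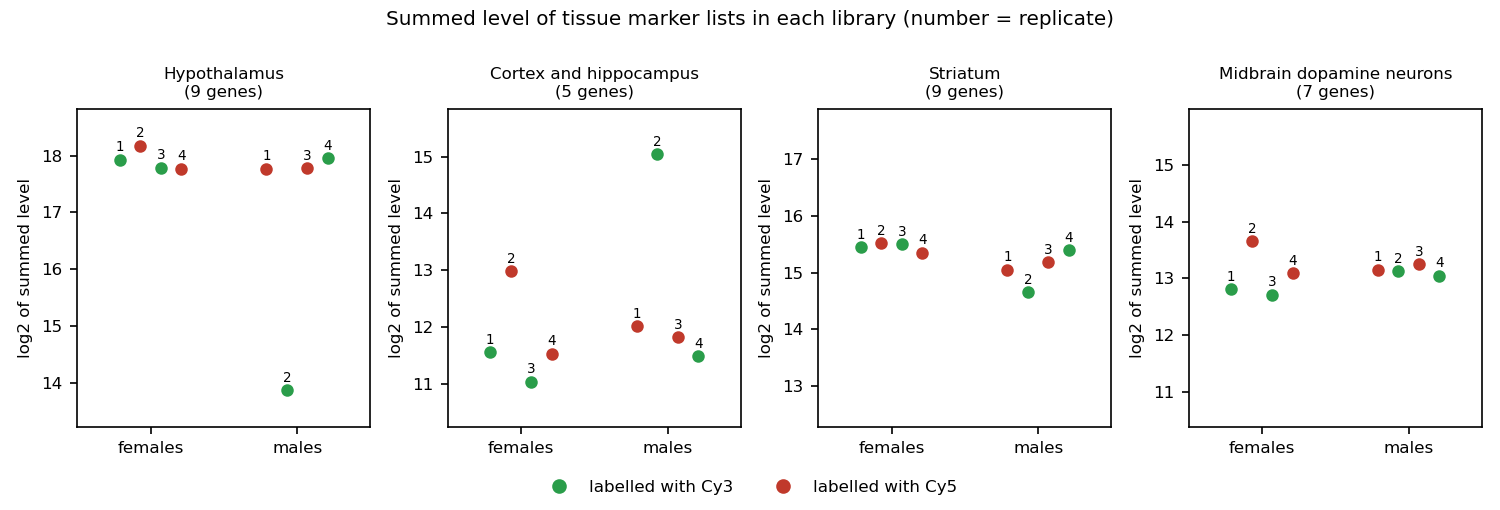
Summed level of 4 tissue marker lists in each library (y axis, log2 of the sum over genes), for females and males on the x axis, with the replicate number above each point and the dye as colour. The library labelled male 2 sits at 13.87 on the hypothalamic list and 15.05 on the cortical and hippocampal list, apart from the other 7 libraries on both; on the striatal list it is at 14.65, against 15.05 to 15.52 elsewhere.

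Of the 12 member probes, 10 passed the filter, which asked that in 1 sex or both each of the 4 samples be well above background, and these covered 7 of the 9 genes. The Drd1a probe was well above background in 1 female and 2 males and the Drd3 probe in 2 females and 2 males, so neither gene was tested. Among the 7 tested genes, each represented by its brighter probe, 0 passed an adjusted p of 0.05 in limma for female over male. That is also the count over all 14603 genes tested (0%). At an unadjusted p under 0.05 the members again numbered 0 of 7, where 8.52% of all genes passed. Without replicate 2 they numbered 0 of 7 at either threshold, where 8.06% of all genes passed unadjusted. Without replicate 4 they numbered 2 of 7 adjusted, Ddc and Drd2, where 7.55% of all genes passed, and 4 of 7 unadjusted, where 31.1% of all genes passed. In that fit array 2, which holds the library labelled male 2, was the only array left with the female in Cy5, so its distance from the other arrays did not enter the standard error. Every fit without 1 replicate has this limit, as 1 array is then alone in its dye order. Without replicate 2 that is array 4. The standard errors and p-values given without replicate 2 thus rest on the spread between arrays 1 and 3. The fitted ratio was above 0, that is higher in females, for 5 of the 7, beside 56.2% of all genes, and for 4 of the 7 without replicate 2, beside 57.9%. The members' median log2 ratio was 0.25, beside 0.021 over all genes, and it was 0.079 without replicate 2. Levels and ratios are log2 values, and a ratio of 1 on that scale is a doubling.

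**Figure D2:**
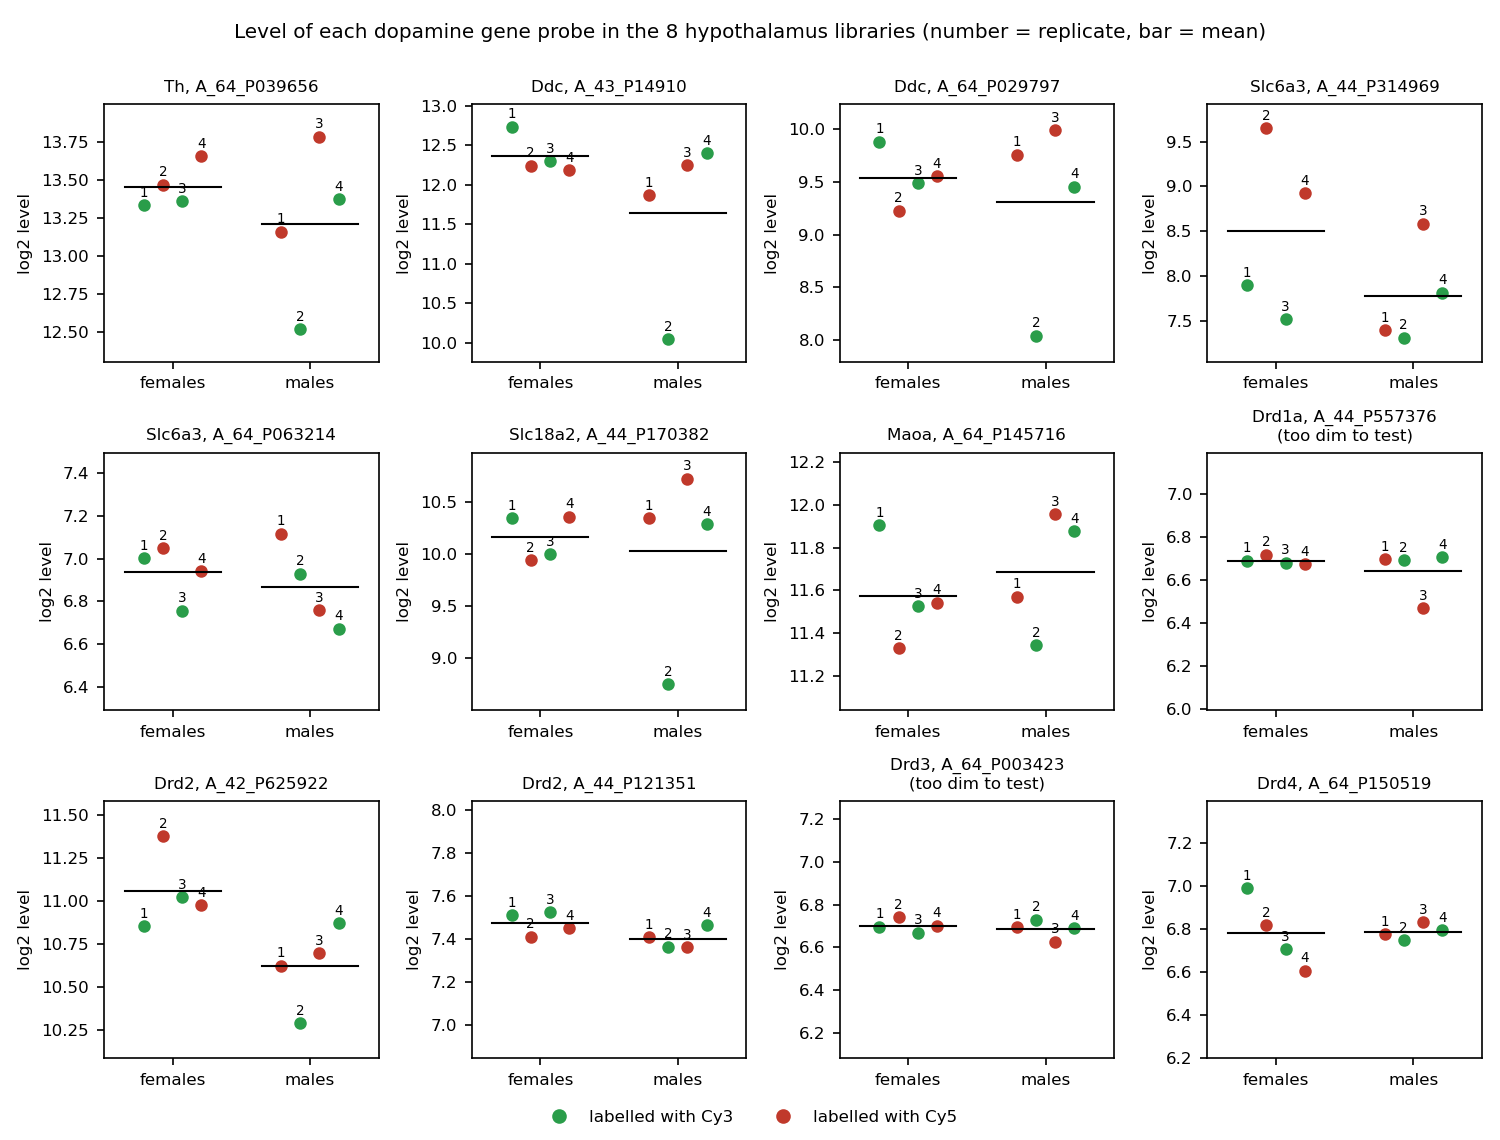
Log2 level of each of the 12 member probes in the 8 libraries, with females and males on the x axis, the replicate number above each point, the dye as colour and the group mean as a bar. The library labelled male 2 is the lowest male at Th (12.52), both Ddc probes (10.04 and 8.04) and Slc18a2 (8.75); at Drd2 (A_42_P625922) the 4 females lie between 10.86 and 11.38 and the 4 males between 10.29 and 10.87.

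Synthesis comes first. Th, the rate-limiting enzyme, was among the brighter probes of the array, at percentile 93.8 of probe levels. Its log2 level in females 1 to 4 was 13.33, 13.47, 13.36 and 13.66. In males 1 to 4 it was 13.16, 12.52, 13.78 and 13.37. The groups overlapped, with the highest value in male 3 and the lowest in the library labelled male 2. The ratio of female over male on arrays 1 to 4 was 0.17, 0.95, -0.43 and 0.28. Sexes differed by a fitted log2 ratio of 0.25 ± 0.17 (SE, 4 arrays, adjusted p = 0.595 in limma), with a 95% interval from -0.20 to 0.69. This did not pass the test, and the ratio was 0.079 ± 0.15 without replicate 2.

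Ddc, which turns L-DOPA into dopamine and also makes serotonin, had the largest standard error of the members, and its fitted ratio on 4 arrays was close to that of Slc6a3. At the brighter probe (A_43_P14910) its log2 level in females 1 to 4 was 12.74, 12.24, 12.30 and 12.18. The males were at 11.87, 10.04, 12.25 and 12.40. The library labelled male 2 was thus far under every other animal, and the sexes overlapped among the other 7 libraries. Ratios on arrays 1 to 4 were 0.87, 2.20, 0.055 and -0.21. The fit gave 0.73 ± 0.44 (SE, 4 arrays, adjusted p = 0.576 in limma), with a 95% interval from -0.47 to 1.93. It gave 0.12 ± 0.19 without replicate 2 and 1.33 without replicate 4 (adjusted p = 0.0445).

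The second Ddc probe (A_64_P029797), whose letters are printed above, lay at 9.88, 9.23, 9.49 and 9.56 in females 1 to 4. It lay at 9.76, 8.04, 9.99 and 9.46 in the males. Again the library labelled male 2 was the lowest and the rest overlapped. The fitted ratio was 0.23 ± 0.22 (SE, 4 arrays, adjusted p = 0.679 in limma), and it turned to -0.044 without replicate 2. The probes thus shared the low value in that library, while their ratios on array 3 were 0.055 and -0.50 and on array 1 were 0.87 and 0.13.

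Transport was read at Slc18a2 and Slc6a3. Slc18a2, the vesicular monoamine transporter, had log2 levels of 10.34, 9.94, 10.00 and 10.36 in females 1 to 4. Its levels in the males were 10.34, 8.75, 10.72 and 10.29. As for Ddc, the library labelled male 2 was the lowest of the 8 and the sexes overlapped. Array ratios were -0.0017, 1.18, -0.73 and 0.069, with a fit of 0.13 ± 0.24 (SE, 4 arrays, adjusted p = 0.818 in limma). Without replicate 2 the fitted ratio turned to -0.15 ± 0.17.

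Slc6a3, the dopamine reuptake transporter, varied more among the females than the other members did. At the brighter probe (A_44_P314969) females 1 to 4 were at 7.89, 9.65, 7.52 and 8.92 and spread with an SD of 0.97. Males 1 to 4 were at 7.39, 7.31, 8.58 and 7.81, with an SD of 0.58. Signal above background at this probe was 56.4 intensity units in male 1 and 9.81 in the library labelled male 2. In female 2, on the same array as the latter, it was 433 units. The 3 highest values of the 8, those of female 2, female 4 and male 3, were all in Cy5. On the arrays with the female in Cy3 the mean ratio was -0.28, and on those with the female in Cy5 it was 1.73. The sex term, with dye in the fit, was 0.72 ± 0.35 (SE, 4 arrays, adjusted p = 0.555 in limma), and the dye term was -1.003 (adjusted p = 0.139). Between samples of the same dye, females minus males was 0.15 in Cy3 and 1.30 in Cy5, with 2 samples a sex in each. Without replicate 2 the sex term was 0.41 ± 0.35, without replicate 1 it was 0.33, and without replicate 3 it was 1.12 (unadjusted p = 0.0316, adjusted p = 0.978). It was 1.35 with no background correction, 1.69 from the scanner's log ratios and 0.47 from the authors' value table, so the size of this ratio moved with the processing. Whether dye or animal sets these levels was not tested beyond this term.

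At the second Slc6a3 probe (A_64_P063214), whose letters are printed above, all 8 levels lay between 6.67 and 7.12. Signal there was only 2.23 to 35.5 intensity units above background, so differences at this probe are compressed. The fitted ratio was 0.067 ± 0.068 (SE, 4 arrays, adjusted p = 0.689 in limma). Without replicate 2 it was 0.11. Females 2 and 4, high at the brighter probe, were not set apart here, and the highest value was that of male 1.

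Breakdown was read at Maoa, an X-linked gene. Its levels were 11.91, 11.33, 11.53 and 11.54 in females 1 to 4 and 11.57, 11.34, 11.95 and 11.88 in the males. The groups overlapped and the lowest values were those of female 2 and the library labelled male 2, which shared an array. The ratio was above 0 on 1 of 4 arrays and the fit gave -0.11 ± 0.15 (SE, 4 arrays, adjusted p = 0.768 in limma), or -0.19 without replicate 2. Maob, the other monoamine oxidase and also X-linked, gave -0.083 ± 0.090, or -0.030 without replicate 2.

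Drd2, the receptor that acts both as autoreceptor on dopamine neurons and on their targets, was the tested member with 1 direction on every array. Its brighter probe (A_42_P625922) was spotted 10 times and read 10.86, 11.38, 11.02 and 10.98 in females 1 to 4. It read 10.63, 10.29, 10.698 and 10.87 in the males. The sexes overlapped in 1 pair, with male 4 just above female 1, and the other 3 males were under all females. The ratio was 0.23, 1.09, 0.32 and 0.11 on arrays 1 to 4, above 0 on all 4, a pattern found in 5.02% of all genes. Spots of this probe within an array spread with an SD of 0.12 to 0.16, and all kept spots were above 0 on arrays 1 to 3 but 5 of 7 on array 4. These spots are repeat readings of the same RNA and not further animals.

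The fitted Drd2 ratio was 0.44 ± 0.18 (SE, 4 arrays, unadjusted p = 0.0678, adjusted p = 0.555 in limma), with a 95% interval from -0.050 to 0.93, so it missed both thresholds. With the channels as separate samples and no replicate block, the ratio was the same at an unadjusted p of 0.0205 (adjusted p = 0.631), where 7.44% of all genes passed unadjusted. Females minus males was 0.36 among the Cy3 samples and 0.52 among the Cy5 samples. Without replicate 2 the ratio was 0.19 ± 0.072 (unadjusted p = 0.0557), and without replicate 4 it was 0.68 (adjusted p = 0.0334). Leaving out the library labelled male 2 alone, with each sample's own channel fitted and female 2 kept, gave 0.34 ± 0.14 at an unadjusted p of 0.0435. Under that setting, which was added after the data were seen, 10.2% of all genes passed the same unadjusted threshold.

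The second Drd2 probe (A_44_P121351), printed above and also spotted 10 times, was dim, with at most 111.2 intensity units above background. It read 7.41 to 7.53 in the females and 7.36 to 7.46 in the males. Array ratios were 0.10, 0.048, 0.16 and -0.014, and the fit gave 0.075 ± 0.062 (SE, 4 arrays, adjusted p = 0.635 in limma), or 0.060 without replicate 2. The direction was shared with the brighter probe on 3 of 4 arrays.

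The other receptors were at the floor of the assay. Drd4 was well above background in 3 females and 4 males, with levels of 6.61 to 6.99 in females and 6.75 to 6.83 in males. Its fitted ratio was -0.0081 ± 0.095 (SE, 4 arrays, adjusted p = 0.974 in limma), or -0.073 without replicate 2. Drd1a, the main receptor that raises cyclic AMP, read 6.67 to 6.72 in females and 6.47 to 6.71 in males. Drd3 read 6.67 to 6.74 in females and 6.63 to 6.73 in males. At this signal a difference between the sexes in Drd1a, Drd3 or Drd4 was not detectable.

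**Figure D3:**
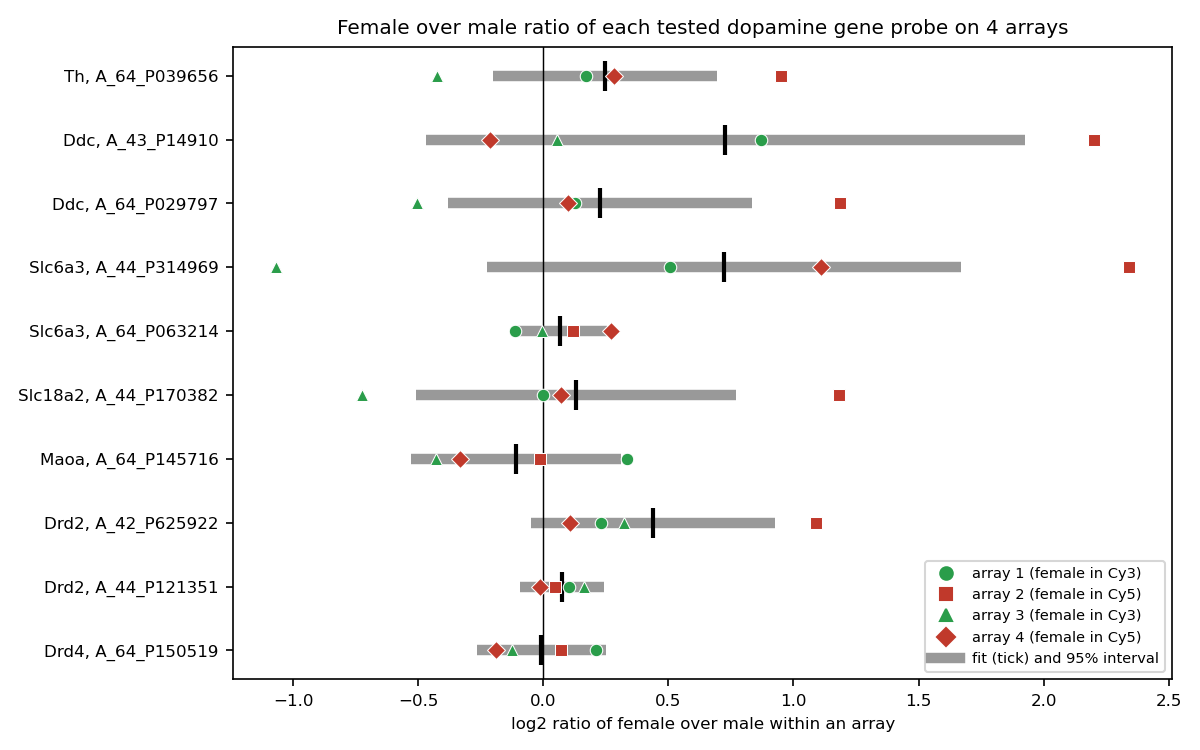
Log2 ratio of female over male for the 10 tested member probes (x axis) on each of the 4 arrays, with symbols for arrays and colour for the dye of the female, and the fitted ratio as a tick with its 95% interval as a grey bar. Every interval includes 0; array 2, which holds the library labelled male 2, gives the largest ratio at Th (0.95), both Ddc probes (2.20 and 1.19), Slc6a3 (2.34), Slc18a2 (1.18) and Drd2 (1.09).

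How far the library labelled male 2 stood from the rest was then read within 1 dye, against the mean of the other Cy3 libraries (females 1 and 3 and male 4). Ddc was 5.41-fold lower in it at the brighter probe and 2.96-fold lower at the second. Slc18a2 was 2.74-fold lower, Th 1.79-fold and Drd2 1.54-fold. Over all genes this difference had a median of -0.019 and an SD of 0.59 on the log2 scale, and Ddc lay at percentile 0.24, Slc18a2 at 1.33 and Th at 5.17. Maoa (1.34-fold lower) and the brighter Slc6a3 probe (1.35-fold lower) lay nearer the middle, at percentiles 16.1 and 15.7. That Slc6a3 probe had only 9.81 intensity units above background in this library, against 143 to 202 in the other Cy3 libraries. Its fold is therefore compressed, and a larger difference in Slc6a3 could not be read from it. In the same library Avp was lower by a log2 difference of -4.52, Pmch by -4.33 and Hdc, the enzyme that makes histamine, by -2.77. Neurod6 was higher by 5.996 and Neurod2 by 5.46. With 1 library on one side, these values are a description and carry no test.

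**Figure D4:**
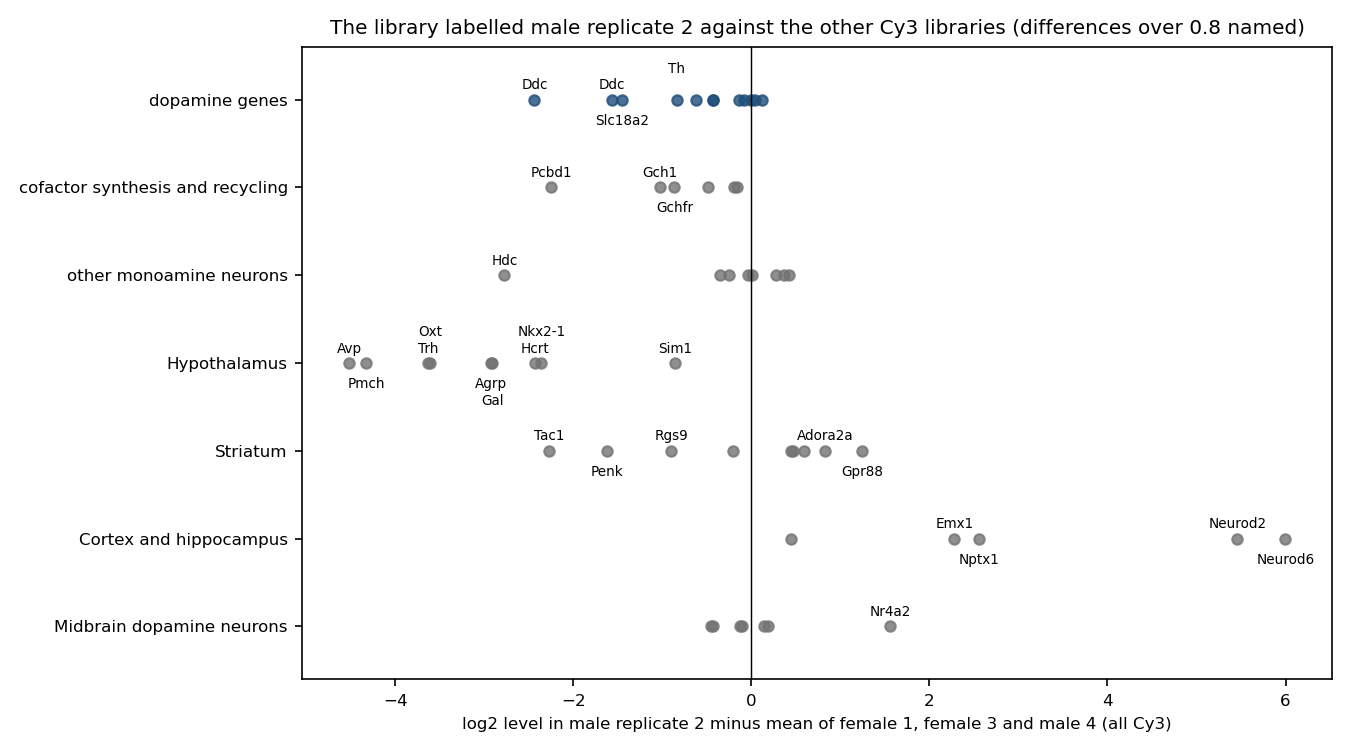
Log2 level in the library labelled male 2 minus the mean of the other 3 Cy3 libraries (x axis), with 1 point per member probe in the top row and 1 point per gene of 6 other lists below, and gene names for differences over 0.8. Ddc (-2.44 and -1.57), Slc18a2 (-1.45) and Th (-0.84) lie left of 0 with the hypothalamic markers, and the cortical and hippocampal markers lie right of 0.

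The members also moved together to different degrees across libraries. After the mean of each dye was removed, the levels of Th and Ddc correlated with a Pearson r of 0.88 over 8 libraries, and with 0.56 over the 7 without male 2. Ddc and Slc18a2 gave 0.90 over 8 and 0.23 over 7. Thus the close likeness among Th, Ddc and Slc18a2 was weaker without that library. Slc18a2 and Maoa gave 0.86 over 8 and 0.97 over 7, and Slc6a3 and Drd2 gave 0.74 and 0.82. Slc18a2 and Drd2 went from 0.33 over 8 to -0.82 over 7. These are descriptions over few libraries that share arrays and channels in pairs.

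The named genes whose levels were most like those of Th over the 8 libraries, among 14487 genes compared, were Pbx3 (Pearson r = 0.97), Nus1 (0.97) and Fbxo21 (0.97). For Drd2 they were RGD1565157 (0.98), Lyrm2 (0.98) and Mmgt2 (0.98). Over the 7 libraries without male 2, these genes gave 0.95, 0.90 and 0.90 with Th and 0.97, 0.97 and 0.99 with Drd2. The genes were picked for their high correlation over the 8 libraries, which include these 7. Both sets of values are thus descriptions and cannot test the likeness. Drd1a was too dim for this comparison.

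The promoters of the 9 members, 250 bases up to each RefSeq gene start on the GRCr8 assembly (11 windows), were searched on both strands for the cyclic AMP response element TGACGTCA. It is shown because Th and Slc18a2 were the members that held it. Their levels correlated at 0.85 over 8 libraries and 0.42 over 7. Ddc, which did not hold it, correlated with Th at 0.88 over 8 and 0.56 over 7, and with Slc18a2 at 0.90 and 0.23. A link between the motif and these levels was not tested. Each run below is 30 bases, read 5′ to 3′ on the strand of the gene, with the motif in capitals.
Th, chr1:207508269-207508298, minus strand: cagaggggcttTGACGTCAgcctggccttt
Slc18a2, chr1:268399958-268399987, plus strand: agtgctatccgTGACGTCAgagccggactg
The motif lay 69 to 62 bases before the start in Th and 52 to 45 bases before it in Slc18a2. The same letters occurred in 531 of 33469 windows of this length (1.59%). The binding letters of the orphan receptor Nr4a2 and its relatives, AAAGGTCA, occurred in 1.24% of windows and, among members, in that of Ddc on the opposite strand.
Ddc, chr14:90682838-90682867, minus strand: ctggacttcctTGACCTTTataccatcaga
These matches describe letters in a window and were not measured as binding sites here.

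The wider pathway was followed in 44 other genes, of which 42 had a probe and 37 were tested. The others were not analysed here. At an adjusted p of 0.05 in limma 0 of the 37 passed, and at an unadjusted p under 0.05 Gchfr and Slc6a2 passed with a higher level in females and Kcnj6 with a higher level in males. The background at that threshold was 5.01% of all genes higher in females and 3.51% higher in males. The median log2 ratio of the 37 was 0.042, and 29 were above 0, beside 56.2% of all genes. Without replicate 2 the median was 0.024 and 26 were above 0, beside 57.9% of all genes, and Slc6a2 and Kcnj6 passed the unadjusted threshold.

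Th needs the cofactor tetrahydrobiopterin, and all 6 tested genes that make or recycle it had a ratio above 0, with a median of 0.22 and 1 of 6 at an unadjusted p under 0.05. Over all genes 56.2% were above 0 and 8.52% were under that threshold. Without replicate 2 the ratio was above 0 for 5 of 6, with a median of 0.055 and 0 of 6 at that threshold, and Pts, which makes an intermediate of the cofactor, turned from 0.11 to -0.070. Gchfr, which feeds back on the first enzyme of that route, had the ratio 0.41 ± 0.15 (unadjusted p = 0.0464 in limma), and 0.23 ± 0.097 without replicate 2 (unadjusted p = 0.0779). Spr, the last enzyme of the route, had 0.22 ± 0.12, and 0.058 without replicate 2. Pcbd1, which recycles the cofactor, had 0.56 ± 0.36, and 0.035 without replicate 2. In the library labelled male 2 Pcbd1 was 4.74-fold and Gch1, the first enzyme, 2.04-fold lower than in the other Cy3 libraries.

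Among 15 genes of receptor signalling, 10 had a ratio above 0 and 1 passed the unadjusted threshold, both with and without replicate 2. Over all genes 56.2% were above 0 and 8.52% passed, or 57.9% and 8.06% without replicate 2. Kcnj6 encodes a potassium channel that D2 receptors open through G proteins. Its log2 level was 9.03, 8.47, 8.54 and 8.48 in females 1 to 4 and 8.80, 10.28, 9.22 and 9.44 in the males. Female 1 was above male 1, and the other females were under all males. The ratio was -0.81 ± 0.22 (unadjusted p = 0.0198, adjusted p = 0.555 in limma), and -0.59 ± 0.21 without replicate 2 (unadjusted p = 0.0473). Rgs9, which shortens D2 signalling, had 0.46 ± 0.21, and 0.17 without replicate 2. Gnal, the G protein that couples D1 receptors to adenylyl cyclase, had 0.11 ± 0.072, and 0.064 without replicate 2.

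Of the 9 tested transcription factors and markers of dopamine neurons, 7 had a ratio above 0, or 6 without replicate 2. The shares over all genes were 56.2% and 57.9%. The unadjusted threshold was passed by 0 in either fit, beside 8.52% and 8.06% of all genes. En1 had 0.11 ± 0.094 and Nr4a2 -0.23 ± 0.25, and without replicate 2 En1 was at 0.035 and Nr4a2 at 0.018. Drd5, the other receptor of the D1 class, had 0.00062 ± 0.061, and -0.0071 without replicate 2.

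Of the genes of other monoamine neurons, 5 of 8 were tested. All 5 ratios were above 0 with and without replicate 2, beside 56.2% and 57.9% of all genes. Slc6a2, the noradrenaline transporter, which also carries dopamine, was at 7.86, 7.70, 7.99 and 7.85 in females 1 to 4 and at 7.69, 7.58, 7.52 and 7.63 in the males. These groups did not overlap, but the lowest female (7.70) was only just above the highest male (7.69). Array ratios were above 0 on all 4 arrays, a pattern found in 5.02% of all genes. The share of all genes whose groups did not overlap was not counted. Slc6a2 had 2 probes, and the dimmer one is not reported here. The ratio was 0.25 ± 0.081 (unadjusted p = 0.0356, adjusted p = 0.555 in limma) and 0.27 ± 0.095 without replicate 2. Hdc had ratios of -0.28, 3.09, -0.35 and 0.46 on arrays 1 to 4 and a fit of 0.73 ± 0.46, which was 0.075 without replicate 2. Pnmt, which makes adrenaline, had 0.057 ± 0.068, and 0.010 without replicate 2. Dbh, Slc6a4 and Tph2, which define noradrenaline and serotonin cells, failed the filter. Pituitary markers were present unevenly: 4 of the 7 listed were well above background in all 8 libraries, and Prl, whose hormone dopamine restrains, was so in 1 female and 0 males. The summed log2 level of the 7 was 15.49 to 17.37 in females and 13.67 to 16.67 in males, lowest in the library labelled male 2. Cga, the shared subunit of the glycoprotein hormones, ranged from 13.01 to 16.80 and Tshb from 10.97 to 15.35 over the 8 libraries. Gh1 had a ratio of 0.63 ± 0.22 (unadjusted p = 0.0433, adjusted p = 0.555 in limma), and 0.76 without replicate 2. Over all genes 8.52% were under an unadjusted p of 0.05. Gh1 was well above background in 4 females and 2 males, so it passed the filter only through the females. Of the 6 pituitary markers tested, 5 had a ratio above 0. Pomc, which hypothalamic neurons also make, ranged from 11.04 to 14.25, so this list does not read pituitary RNA alone. The part of pituitary RNA in the members' values was not tested. The summed log2 level of 7 midbrain dopamine neuron markers, a list that includes Slc6a3, was 12.71 to 13.65 in females and 13.05 to 13.25 in males, highest in female 2. That sum mostly followed the probes of Aldh1a1 (11.85 to 13.14) and Nr4a2 (10.10 to 12.12), while the defining factors Pitx3, En1, Lmx1b and Foxa2 stayed between 6.44 and 7.996.

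**Figure D5:**
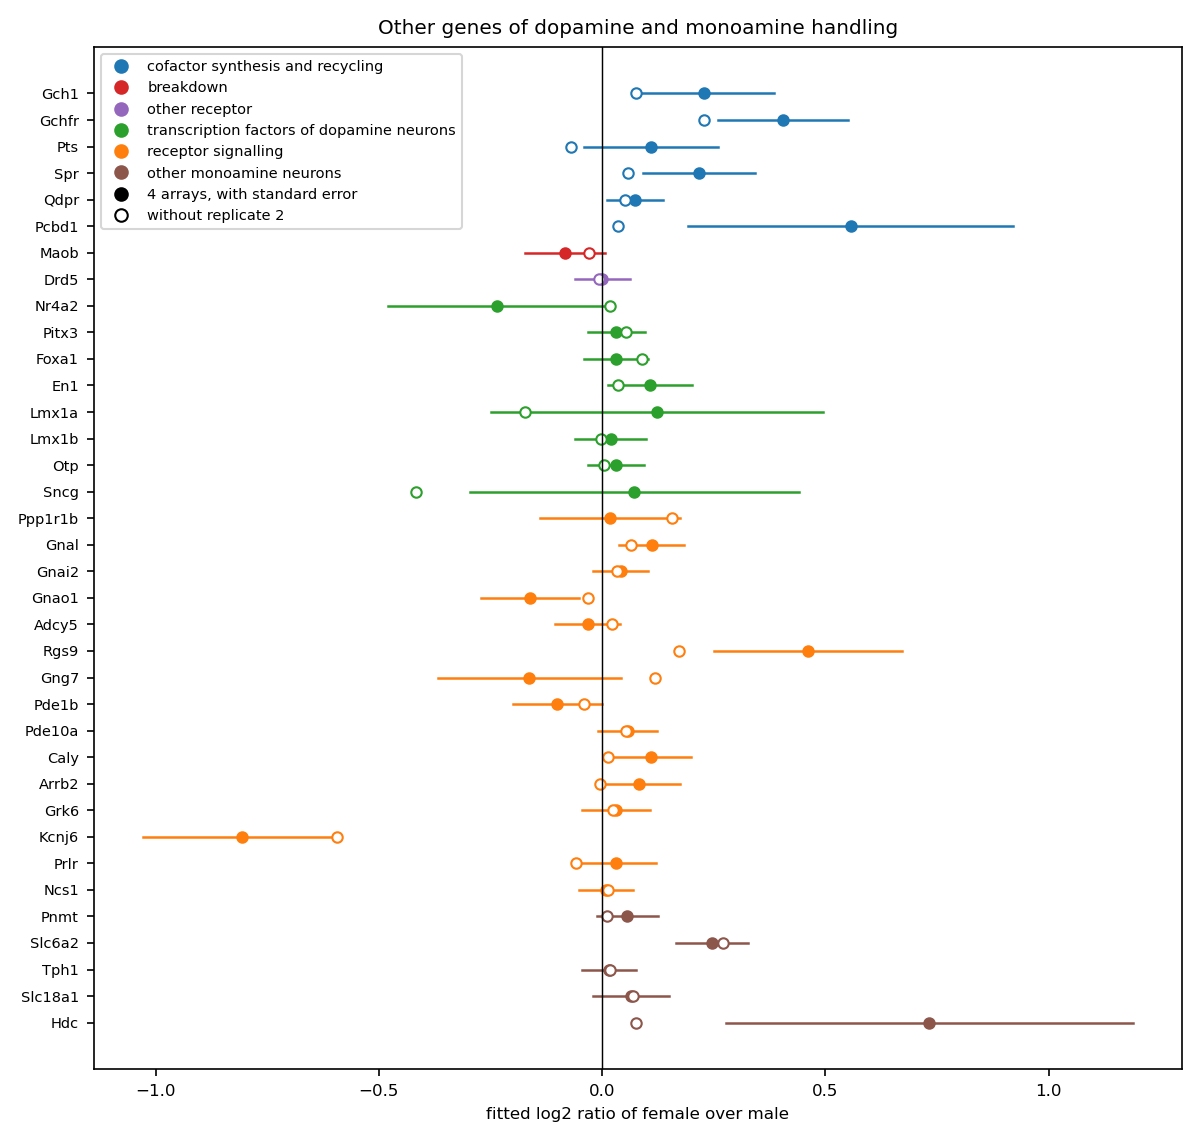
Fitted log2 ratio of female over male (x axis) for 36 of the 37 tested pathway genes, coloured by role, with filled points and standard error bars for 4 arrays and open points without replicate 2. The cofactor genes lie right of 0 with a median of 0.22 on 4 arrays and 0.055 without replicate 2, Kcnj6 is the lowest at -0.81, and Hdc moves from 0.73 to 0.075 without replicate 2.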

How the data were processed

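Per the submitters' processing notes, spots were read with Agilent Feature Extraction 10.7.3.1. Spot and local background signals are intensity values as scanned, per the file headers. Per the file headers, the deposited log ratio is on a log10 scale, red over green. The authors also deposited a value table, on a log2 scale, of the median signal after subtraction of the local background, shifted per column (medians 0, equal within 0.01 for 100% of values).

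Mean signals were corrected with normexp (offset 50) and normalised by loess within arrays in limma 3.58.1 under R 4.3.3. Between 931 and 1096 outlier spots per array were dropped, and repeat spots averaged. Levels are log2 values after Aquantile scaling between arrays. The filter asked for more than 0.5 of a probe's spots well above background in each sample of 1 sex or both, and 21995 probes were fitted. The log2 ratio of female over male within arrays was fitted with lmFit and eBayes, with a dye term, and p-values adjusted by Benjamini-Hochberg over all probes. The dye term passed an adjusted p of 0.05 at 12.7% of probes. Genes were counted through their brightest probe, and member probes are all given. The array that a female and a male shared is the block. Their deviations from the sex means correlated at 0.61, 0.68, 0.46 and -0.08 on arrays 1 to 4. Each sample is 1 animal per the labels. Steps were tested on simulated data. Motifs were searched in RefSeq promoter windows (GRCr8), in which all 9 members were found.

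The members and lists were chosen with earlier results of these data known. Named pathway genes were those under an unadjusted p of 0.05 and up to 3 with the smallest p in each role, 1 of which is not reported here. For Th and Drd2, the 3 genes most correlated with them were named. Alternatives were no dye term, no block, other background corrections and centring, the scanner's log ratios, the authors' table, other filters, outlier spots kept, the mean of a gene's probes, a robust prior with trend, and leaving out each replicate. Plots used matplotlib 3.10.9 (Python 3.11.15).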

Additional observations from a re-analysis of the deposited data

Results flagged for a closer look

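Ddc at its second probe (A_64_P029797) in the library labelled male 2 stood away from the other 3 males. With the mean of its dye removed, its log2 level there was -1.18, against 0.12 in the nearest of the other males, a gap of 0.85 of the range of the 4 (the Dixon 95% limit for 4 samples is 0.829). It was 1 of 20 groups checked, and chance alone passes about 1 group in 20. The same library was the lowest of the 8 at the brighter Ddc probe.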

How the results depend on the processing

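The pairing of a female and a male on an array is the block of the fit. With no replicate block 1 of 7 members, Drd2, passed an unadjusted p of 0.05 (7.44% of all genes), as did Drd2 (1 member) with outlier spots kept (8.51%) and again (1 member) with male replicate 2 alone left out and no block (10.2%), against 0 as reported. Leaving out 1 replicate at a time gave 0 to 4 members unadjusted and 0 to 2 adjusted. The highest came without replicate 4, where Ddc (1.33, adjusted p = 0.0445 in limma) and Drd2 (0.68, adjusted p = 0.0334) passed together with 7.55% of all genes, and 31.1% of genes passed unadjusted. Pathway genes at the unadjusted threshold numbered 0 with no dye term and 1 each with median centring, the scanner's log ratios and the authors' value table, against 3, and 0 to 10 with a replicate left out, the most without replicate 4. Over all genes 1244 passed unadjusted, against 405 with no dye term, 776 with median centring, 594 without replicate 1, 309 without replicate 3 and 4524 without replicate 4; the adjusted count was 1096 without replicate 4 and 0 otherwise. The median member ratio was 0.079 to 0.41 with a replicate left out and 0.043 without male replicate 2. Direction turned for Drd4 (0.072 with no background correction, 0.073 with median centring, -0.093 to 0.077 with a replicate left out), Maoa (-0.30 to 0.081 with a replicate left out), Slc18a2 (-0.15 to 0.41 with a replicate left out, -0.28 without male replicate 2) and the second Ddc probe (-0.044 to 0.50 with a replicate left out, -0.20 without male replicate 2). Th, the brighter Ddc probe, Slc6a3 and Drd2 kept their direction under all alternatives run, but Slc6a3 ranged from 0.33 without replicate 1 to 1.69 with the scanner's log ratios. The cause of these changes was not tested. Signal over background limits Drd1a, Drd3, Drd4 and the second probes of Slc6a3 and Drd2. It also limits the brighter Slc6a3 probe, with 56.4 intensity units in male 1 and 9.81 in the library labelled male 2.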
